A study of Homo sapiens with 12 samples.

Results

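The comparison described here asks where the step from a parental Ewing sarcoma line to its YK-4-279-resistant derivative differs between 2 cell lines, and which genes and functions move in opposite directions in them. It uses 12 of the 12 libraries of the series, taken by title as 4 groups of 3. A4573 parental and TC-71 parental are established human Ewing sarcoma lines kept in DMSO, the solvent. A4573-R and TC-71-R are their derivatives, sampled in YK-4-279, which the labels give as 650 uM in the A4573 derivative and 400 uM in the TC-71 derivative. Such concentrations are unusually high for the compound, so the unit is in doubt, and they differ between the lines. In both lines the derivative is resistant and exposed to the compound, while the parent is neither, so resistance and exposure cannot be told apart. Whether a derivative is 1 clone or a pool, and whether the 3 libraries of a group come from separate cultures, is not stated in the labels. The p-values below are therefore set against the spread of libraries alone, and that spread may be technical.

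Ewing sarcoma is driven by a fusion of EWSR1 with an ETS gene, most often FLI1, whose product EWS-FLI1 switches some genes on and holds others down. The compound YK-4-279 was designed to separate EWS-FLI1 from RNA helicase A, the product of DHX9. Several of the genes below belong to the integrated stress response, in which a stressed cell slows translation yet makes more of the transcription factor ATF4, which in turn switches on genes for amino acid uptake and synthesis, redox balance and cell death. ATF4 itself is controlled largely at translation, so its messenger RNA need not follow its targets.

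For each gene with at least 1 CPM (counts per 1000000 reads on the authors' scaled library sizes) in at least 3 libraries, 14335 in all, the change in each line was taken on log2(CPM + 1). This scale understates the change of genes with few CPM. The difference between lines is the change in TC-71-R minus the change in A4573-R, so it is negative where A4573-R moved higher. A gene was said to move in opposite directions where this difference and both single-line changes had an adjusted p under 0.05 in limma and the changes had opposite signs. The single-line changes share no library. Exact tests of 3 against 3 libraries cannot go below 0.1 and were not used.

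The libraries held 44.0 M to 62.1 M reads on named genes (M, 1000000). Of 11 Ewing line markers, 10 were tested. Their summed level was 924 to 973 CPM in A4573-R and above that in the other groups, up to 2174 CPM in TC-71-R. The largest part of this sum in every group was CCND1, whose mean fell from 633 to 349 CPM between the A4573 parent and its derivative. PRKCB rose there from 95.9 to 182 CPM. Among the 10 tested markers, 6 were lower and 3 higher in A4573-R, so the sum does not describe each marker. The eleventh, CD99, had a mean of 0.012 CPM or less in every group. It is a surface antigen that defines the tumour and lies in the region shared by chromosomes X and Y, where reads can be left uncounted. Summed haematopoietic markers stayed at or below 3.29 CPM and endothelial ones at or below 2.36 CPM. Summed epithelial markers were at most 1.81 CPM in the A4573 groups, 21.4 to 22.4 CPM in TC-71 parental and 4.65 to 5.42 CPM in TC-71-R, of which KRT18 gave a mean of 18.0 and 4.11 CPM in the TC-71 groups. The part of these markers in the results below was not tested.

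The change differed between the lines for 11197 of the 14335 genes (78.1%). It was higher in TC-71-R for 5439 genes (37.9%) and higher in A4573-R for 5758 (40.2%). The median size of the difference was 0.43 on the log2 scale, and 2367 genes (16.5%) differed by at least 2-fold. Each derivative also differed from its own parent in most genes, 10389 (72.5%, with 38.3% higher and 34.1% lower) in A4573-R and 11248 (78.5%, with 38.8% higher and 39.6% lower) in TC-71-R. With shares this high, a count of changed genes in any list has to be read against them.

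Of 8241 genes changed in both lines (57.5% of those tested), 4482 (31.3%) changed in the same direction and 3759 (26.2%) in opposite directions. Opposite genes were thus 45.6% of those changed in both. Among them 2046 (14.3% of tested genes) rose in A4573-R and fell in TC-71-R, and 1713 (11.9%) fell in A4573-R and rose in TC-71-R. Which direction was the more frequent depended on the scaling, since TMM scaling gave 1853 and 1987. Most of these changes were small, with a median of 0.26 for the smaller of a gene's pair of changes. At 1.5-fold or more in each line 442 genes (3.08%) moved in opposite directions, 288 of them (2.01%) up in A4573-R and 154 (1.07%) down, and 512 (3.57%) in the same one. At 2-fold or more in each line 93 genes (0.649%) moved in opposite directions and 95 (0.663%) in the same one. Of the 93, 69 (0.481%) rose in A4573-R and fell in TC-71-R, and 24 (0.167%) did the reverse. In 95.4% of the 3759 opposite genes, and in 69 of the 69 and 24 of the 24 at 2-fold, the 3 libraries of parent and derivative did not overlap in either line. Absence of overlap in both lines was found for 8751 of all tested genes (61%). Opposite genes had to pass the threshold in both lines on these same libraries. Their higher share therefore follows largely from the selection and is no separate support. The 2-fold limit on log2(CPM + 1) cuts through a continuous range. Just outside it lay RIMKLA, HOXB7 and BEX2, whose smaller change was 0.995, 0.997 and 0.997, and just inside lay CNKSR2, LIPI and NFIL3 with 1.0004, 1.0016 and 1.0064.

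**Figure D1:**
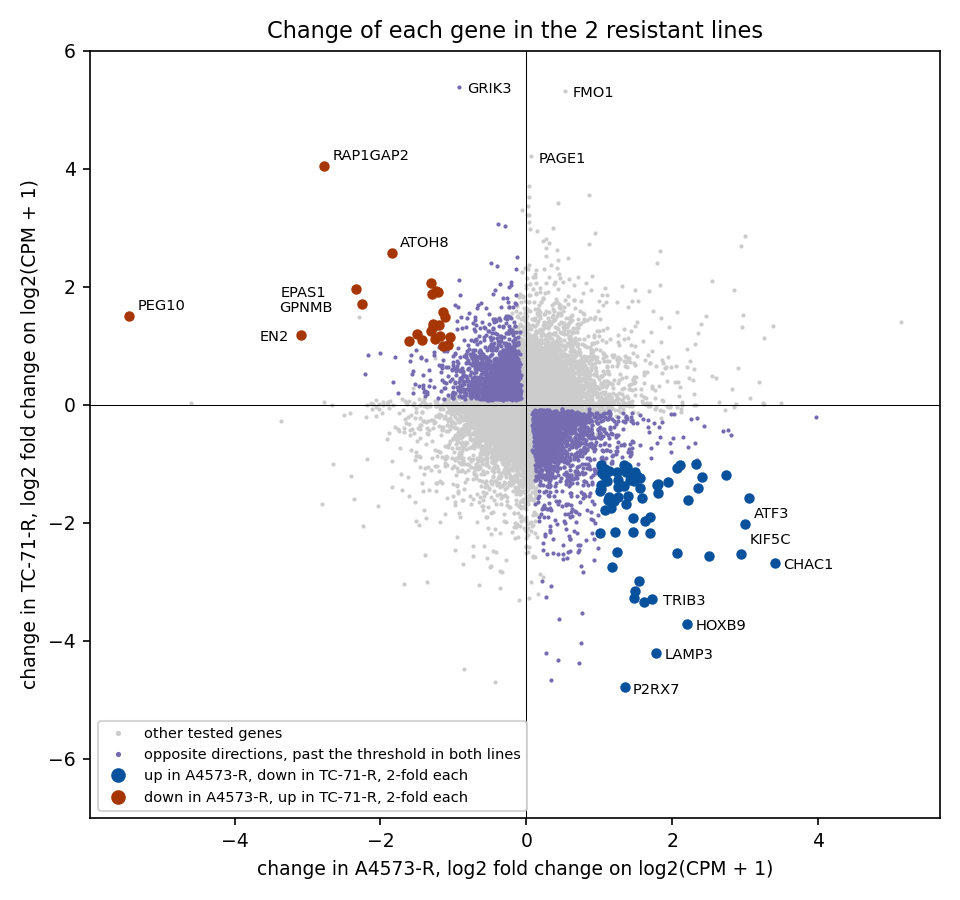
Change of each of the 14335 tested genes in A4573-R (horizontal axis) and TC-71-R (vertical axis), as log2 fold changes on log2(CPM + 1) against the parental line. Purple points are the 3759 genes that moved in opposite directions, and blue and brown points the 69 and 24 that did so by at least 2-fold in each line. The blue group reaches changes of 3.40 and -2.67 for CHAC1, and the brown group -2.77 and 4.05 for RAP1GAP2.

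The genes that rose in A4573-R and fell in TC-71-R were led by stress genes, a neuronal motor and a homeobox gene. CHAC1, an enzyme that breaks down glutathione and a target of the ATF4 pathway (chromosome 15, 40952962 to 40956519, GRCh38), had 4.73, 4.61 and 4.55 CPM in A4573 parental, 44.3, 103 and 43.5 CPM in A4573-R, 57.6, 54.3 and 57.6 CPM in TC-71 parental and 7.83, 8.38 and 7.84 CPM in TC-71-R. Its log2 fold change was 3.40 in A4573-R and -2.67 in TC-71-R (SE 0.21 in each line), and the difference between them was -6.07 (SE 0.30, adjusted p 7.3e-11). The second A4573-R library stood far above the other two, yet all 3 stood above every parental library, and the A4573-R level came close to that of TC-71 parental. KIF5C, a kinesin heavy chain that carries cargo along microtubules in neurons (chromosome 2, 148875250 to 149026759), had 1.81, 1.73 and 1.75 CPM in A4573 parental, 21.1, 19.2 and 20.3 CPM in A4573-R, 22.4, 21.6 and 22.1 CPM in TC-71 parental and 3.05, 3.02 and 2.85 CPM in TC-71-R. Its log2 fold change was 2.94 in A4573-R and -2.54 in TC-71-R (SE 0.05 in each line), and the difference between them was -5.48 (SE 0.07, adjusted p 3.1e-17). The libraries of each group agreed closely, and the exchange was nearly complete: A4573-R reached the level of TC-71 parental while TC-71-R came down to near that of A4573 parental.

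SESN2, a sestrin that restrains mTORC1 under amino acid shortage, had 13.3, 12.8 and 13.7 CPM in A4573 parental, 67.5, 132 and 57.3 CPM in A4573-R, 79.8, 78.0 and 82.8 CPM in TC-71 parental and 11.9, 13.5 and 12.7 CPM in TC-71-R. ATF3, a stress-induced transcription factor of the same family as ATF4, had 5.37, 5.06 and 5.34 CPM in A4573 parental, 39.1, 75.4 and 39.5 CPM in A4573-R, 50.1, 51.2 and 54.0 CPM in TC-71 parental and 11.7, 12.1 and 12.1 CPM in TC-71-R. TRIB3, a pseudokinase induced by ATF4, had 17.6, 17.4 and 18.3 CPM in A4573 parental, 57.3, 105 and 37.5 CPM in A4573-R, 607, 626 and 632 CPM in TC-71 parental and 64.4, 68.6 and 55.3 CPM in TC-71-R. The log2 fold changes were 2.50 in A4573-R and -2.57 in TC-71-R for SESN2, 3.00 in A4573-R and -2.03 in TC-71-R for ATF3 and 1.72 in A4573-R and -3.29 in TC-71-R for TRIB3. In these 3 genes too the second A4573-R library was the highest, and no parental and derivative libraries overlapped in either line. LAMP3, a lysosomal membrane protein, had 0.718, 0.745 and 0.843 CPM in A4573 parental, 5.16, 6.13 and 4.10 CPM in A4573-R, 19.1, 18.0 and 19.6 CPM in TC-71 parental and 0.118, 0.0393 and 0.0722 CPM in TC-71-R. Its log2 fold change was 1.78 in A4573-R and -4.21 in TC-71-R (SE 0.09 in each line), and the difference between them was -5.99 (SE 0.13, adjusted p 8.1e-15). In TC-71 it went from a mean of 18.9 CPM to 0.118 CPM or less in every library.

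HOXB9, which helps to set position along the body axis (chromosome 17, 48621159 to 48626356), had 2.38, 2.62 and 2.88 CPM in A4573 parental, 14.5, 20.6 and 12.9 CPM in A4573-R, 60.4, 60.8 and 65.3 CPM in TC-71 parental and 4.09, 3.66 and 3.64 CPM in TC-71-R. Its log2 fold change was 2.20 in A4573-R and -3.72 in TC-71-R (SE 0.12 in each line), and the difference between them was -5.92 (SE 0.16, adjusted p 1.2e-13). A4573-R did not reach the level of TC-71 parental. MAL2, a membrane protein of apical transport, changed by 2.07 in A4573-R and -2.52 in TC-71-R. GPR85, an orphan receptor of the brain, changed by 1.70 in A4573-R and -1.91 in TC-71-R. MTSS1, which couples membranes to actin, changed by 1.62 in A4573-R and -1.96 in TC-71-R, PRR36 by 2.22 in A4573-R and -1.62 in TC-71-R and the long intergenic RNA LINC01234 by 1.70 in A4573-R and -2.17 in TC-71-R. All of these were higher in TC-71 parental than in TC-71-R and lower in A4573 parental than in A4573-R, without overlap. P2RX7, an ATP-gated channel (chromosome 12, 121132819 to 121188032), had 0.837, 0.849 and 0.795 CPM in A4573 parental, 3.51, 3.85 and 3.55 CPM in A4573-R, 49.3, 50.7 and 47.7 CPM in TC-71 parental and 0.770, 1.01 and 0.691 CPM in TC-71-R. It changed by 1.34 in A4573-R and -4.79 in TC-71-R, and its difference of -6.13 (SE 0.09, adjusted p 1.7e-16) was the most negative among the genes named by the rule. INHBE, an activin subunit, fell from 25.5 ± 0.741 CPM to 0.276 ± 0.121 CPM (SD, n = 3) in TC-71-R with a log2 fold change of -4.38, and rose by 0.72 in A4573-R, where no library exceeded 1.95 CPM.

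The genes that fell in A4573-R and rose in TC-71-R were led by a RAP1 regulator, a hypoxia factor and an imprinted gene. RAP1GAP2, which switches off the small GTPase RAP1 (chromosome 17, 2755705 to 3037739), had 11.8, 11.8 and 11.6 CPM in A4573 parental, 0.853, 0.800 and 0.943 CPM in A4573-R, 0.262, 0.374 and 0.344 CPM in TC-71 parental and 20.6, 21.9 and 20.4 CPM in TC-71-R. Its log2 fold change was -2.77 in A4573-R and 4.05 in TC-71-R (SE 0.05 in each line), and the difference between them was 6.82 (SE 0.07, adjusted p 7.3e-18). PEG10, a gene of retrotransposon origin expressed from the paternal copy (chromosome 7, 94656325 to 94669695), had 187, 191 and 198 CPM in A4573 parental, 3.60, 3.09 and 3.62 CPM in A4573-R, 53.1, 53.0 and 51.5 CPM in TC-71 parental and 153, 141 and 159 CPM in TC-71-R. Its log2 fold change was -5.45 in A4573-R and 1.5 in TC-71-R (SE 0.05 in each line), and the difference between them was 6.95 (SE 0.07, adjusted p 7.3e-18). A4573 parental was the highest group for PEG10 and TC-71-R came next, 2.87-fold above its parent, while A4573-R was far below all of them.

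EPAS1 encodes the hypoxia-inducible factor HIF-2 alpha (chromosome 2, 46293667 to 46386703) and had 8.12, 7.70 and 7.51 CPM in A4573 parental, 0.665, 0.700 and 0.853 CPM in A4573-R, 3.09, 3.24 and 3.42 CPM in TC-71 parental and 15.4, 16.5 and 14.8 CPM in TC-71-R. ATOH8, a helix-loop-helix transcription factor, had 29.6, 29.2 and 29.8 CPM in A4573 parental, 7.67, 7.37 and 7.50 CPM in A4573-R, 11.6, 13.1 and 12.5 CPM in TC-71 parental and 77.9, 83.8 and 73.3 CPM in TC-71-R. GPNMB, a membrane glycoprotein of melanosomes and lysosomes, had 41.9, 43.6 and 41.5 CPM in A4573 parental, 7.94, 8.25 and 8.15 CPM in A4573-R, 2.46, 2.63 and 2.67 CPM in TC-71 parental and 10.9, 12.1 and 9.25 CPM in TC-71-R. Their log2 fold changes were -2.34 in A4573-R and 1.96 in TC-71-R for EPAS1, -1.84 in A4573-R and 2.57 in TC-71-R for ATOH8 and -2.25 in A4573-R and 1.71 in TC-71-R for GPNMB, with no overlap in either line. IFITM3, a membrane protein that hinders the entry of viruses, had 56.8, 57.5 and 56.5 CPM in A4573 parental, 23.2, 22.1 and 23.2 CPM in A4573-R, 22.0, 23.1 and 23.4 CPM in TC-71 parental and 57.5, 56.6 and 61.1 CPM in TC-71-R. The lines exchanged their levels of IFITM3 almost exactly, with changes of -1.28 in A4573-R and 1.32 in TC-71-R. IFITM3 and IFITM2 are close paralogs, so reads may be shared between them.

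PDGFD, a ligand of the platelet-derived growth factor receptor beta, changed by -1.31 in A4573-R and 2.06 in TC-71-R, while PDGFRB, the gene of that receptor, fell by 1.22 in A4573-R and had a change of 0.06 in TC-71-R that did not pass. GABRE, a subunit of the GABA-A receptor, changed by -1.30 in A4573-R and 1.87 in TC-71-R. IL11RA, the receptor of interleukin 11, changed by -1.22 in A4573-R and 1.91 in TC-71-R. OBSL1, an adaptor of the cytoskeleton, changed by -1.24 in A4573-R and 1.93 in TC-71-R, the RAB5 regulator RIN2 by -1.28 in A4573-R and 1.36 in TC-71-R and the glycosyltransferase UGT3A2 by -1.30 in A4573-R and 1.25 in TC-71-R. Among these 6 genes all but RIN2 ended higher in TC-71-R than in A4573-R. GRIK3, a kainate-type glutamate receptor, had 1.08, 0.908 and 0.988 CPM in A4573 parental, 0.0145, 0.112 and 0.0258 CPM in A4573-R, 1.30, 0.966 and 1.16 CPM in TC-71 parental and 86.3, 94.0 and 86.6 CPM in TC-71-R and changed by -0.92 in A4573-R and 5.39 in TC-71-R. Its difference of 6.32 (SE 0.09, adjusted p 1.8e-16) was the third highest after RAP1GAP2 and PEG10 among the genes named. EN2, a homeobox gene of the midbrain and hindbrain, changed by -3.09 in A4573-R and 1.19 in TC-71-R.

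**Figure D2:**
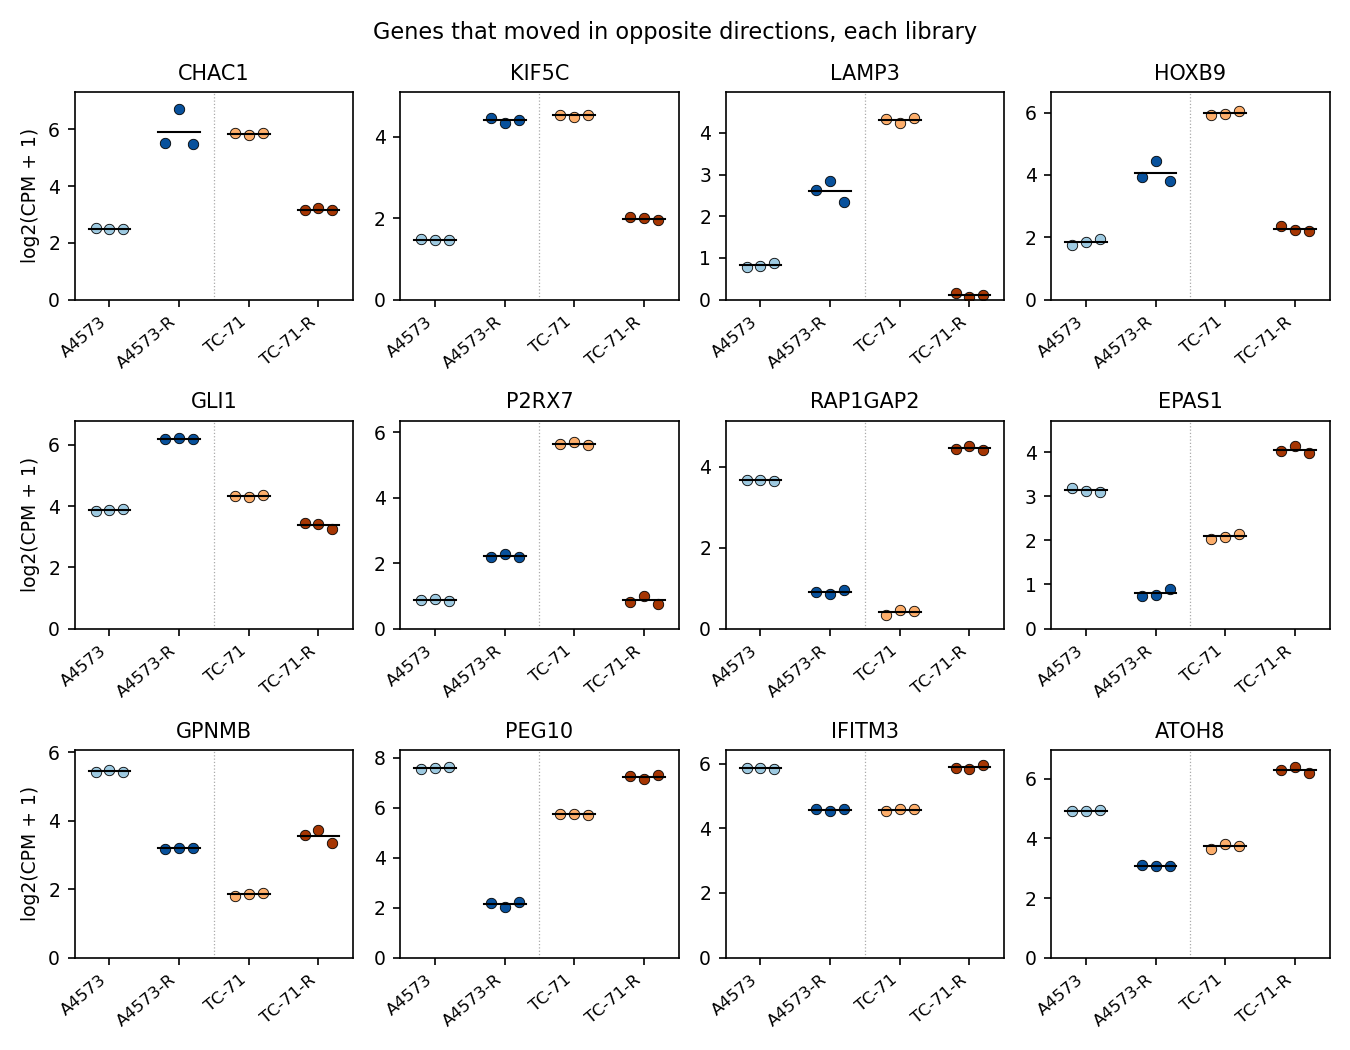
Level of 12 genes in each of the 12 libraries, as log2(CPM + 1). Points are libraries, the short bars are group means (n = 3), and the dotted line separates the cell lines. The first 6 panels show genes that rose in A4573-R and fell in TC-71-R, and the other 6 show the reverse. In A4573-R the second library is the highest for CHAC1, LAMP3, HOXB9, GLI1 and P2RX7, whose 3 libraries still lie above all 3 of the A4573 parent.

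Across all opposite genes the parents' levels were only a little further apart than for all tested genes. The median gap between the parents was 0.74 on the log2 scale for the 2046 genes up in A4573-R and down in TC-71-R and 0.65 for the 1713 of the reverse, against 0.62 for all tested genes. The order of the lines was reversed between parents and derivatives in 40.2% and 38.1% of them, against 21.9% of all tested genes. Among the genes above 2-fold in each line the median gaps were wider, 1.93 and 1.33. Of the 69 that rose in A4573-R and fell in TC-71-R, 60 (87%) were higher in TC-71 parental than in A4573 parental, against 50.8% of all tested genes. In 54 of the 69 (78.3%) the order of the lines was reversed. Of the 24 genes of the other direction, 18 were higher in A4573 parental and 16 (66.7%) reversed their order. These comparisons use the same parental libraries as the changes themselves, so the tilt is not independent of those changes and was not tested. Protein-coding genes made up 97.1% of the 69 and 100% of the 24, against 90.1% of the 14114 tested genes with a type in the annotation.

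Among the lists examined, the ATF4 stress and amino acid genes held the largest share of genes moving in a single opposite direction, up in A4573-R and down in TC-71-R. With both directions counted, the Hedgehog pathway held more, 41.7% and 33.3% of its 12 tested genes. Of 38 tested members, 28 were higher and 1 lower in A4573-R, while 1 was higher and 33 lower in TC-71-R. The difference was below 0 in 37 and above 0 in none. PHGDH, the first enzyme of serine synthesis, was the member whose difference did not pass, with changes of 0.12 in A4573-R and -0.03 in TC-71-R. Opposite movement, up in A4573-R and down in TC-71-R, was found for 25 of 38 (65.8%, against 14.3% of all tested genes), and the reverse for 0. The median change was 0.60 in A4573-R and -1.45 in TC-71-R, against 0.02 and -0.00 over all tested genes.

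The members cover the arms of the response. Among its transcription factors DDIT3, the death-linked factor CHOP, had 27.1, 27.1 and 28.2 CPM in A4573 parental, 60.2, 129 and 59.9 CPM in A4573-R, 428, 442 and 438 CPM in TC-71 parental and 116, 136 and 94.4 CPM in TC-71-R. All 3 A4573-R libraries exceeded their parent, and TC-71-R fell to a level still above that of A4573 parental. ATF5 changed by 1.21 in A4573-R and -2.16 in TC-71-R, CEBPB by 0.87 in A4573-R and -1.5 in TC-71-R and CEBPG by 0.59 in A4573-R and -2.47 in TC-71-R. The phosphatase subunit PPP1R15A, which ends the response by restoring translation, changed by 0.93 in A4573-R and -2.01 in TC-71-R. DDIT4, an inhibitor of mTORC1, changed by 0.88 in A4573-R and -1.94 in TC-71-R, and VLDLR, a lipoprotein receptor, by 1.39 in A4573-R and -1.54 in TC-71-R. These regulators all moved up in A4573-R and down in TC-71-R. ASNS, which makes asparagine, had 0.917, 0.815 and 0.783 CPM in A4573 parental, 2.59, 5.15 and 1.83 CPM in A4573-R, 9.43, 8.69 and 8.52 CPM in TC-71 parental and 1.98, 2.50 and 2.25 CPM in TC-71-R. Its levels are low in both lines, and the groups do not overlap within a line. In serine and one-carbon metabolism PSPH changed by 0.67 in A4573-R and -0.84 in TC-71-R and MTHFD2 by 0.59 in A4573-R and -1.29 in TC-71-R. Among the transporters SLC7A5, which takes up large neutral amino acids, changed by 0.63 in A4573-R and -1.89 in TC-71-R, its partner SLC3A2 by 0.54 in A4573-R and -0.96 in TC-71-R and the glycine carrier SLC6A9 by 0.63 in A4573-R and -1.77 in TC-71-R. For 22 of the 25 opposite members the libraries did not overlap in either line. PSAT1, SHMT2 and SLC7A11 overlapped in A4573. SLC7A11, the cystine carrier, had 31.4, 34.6 and 36.5 CPM in A4573 parental, 48.1, 73.6 and 33.2 CPM in A4573-R, 42.5, 38.6 and 37.5 CPM in TC-71 parental and 8.65, 8.09 and 11.5 CPM in TC-71-R.

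A4573-R was uneven for these genes. The second library was the highest of its group for 25 of the 25 opposite members and the third was the lowest for 24. With each gene centred on its mean over the 12 libraries, the list's median was -0.58 to -0.56 in A4573 parental and -0.08, 0.34 and -0.30 in the A4573-R libraries. It was 1.03 to 1.09 in TC-71 parental and -0.42 to -0.39 in TC-71-R. Without the second A4573-R library 22 members were opposite and the median change in A4573-R was 0.40. Without the third, 30 were opposite.

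Some members did not follow the pattern. ATF4 itself rose in both lines, by 0.76 and 0.16, and had 286, 299.6 and 298 CPM in A4573 parental, 471, 565 and 467 CPM in A4573-R, 407, 418 and 424 CPM in TC-71 parental and 478, 476 and 439 CPM in TC-71-R. GDF15, a secreted stress signal, had 28.8, 29.5 and 30.4 CPM in the TC-71 parental libraries and 2.53, 2.15 and 1.86 CPM in TC-71-R, a fall of 3.27, and was at or below 0.112 CPM in every A4573 library, derivatives included. ALDH1L2, JDP2, NUPR1 and DDR2 fell in TC-71-R by 2.87, 1.66, 1.40 and 1.02 without a change past the threshold in A4573-R. SLC1A4 and CTH rose by 1.25 and 0.96 in A4573-R, with changes in TC-71-R of -0.10 and -0.49 that did not pass. XPOT, which exports transfer RNA, fell in both, by 0.16 and 1.23.

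**Figure D3:**
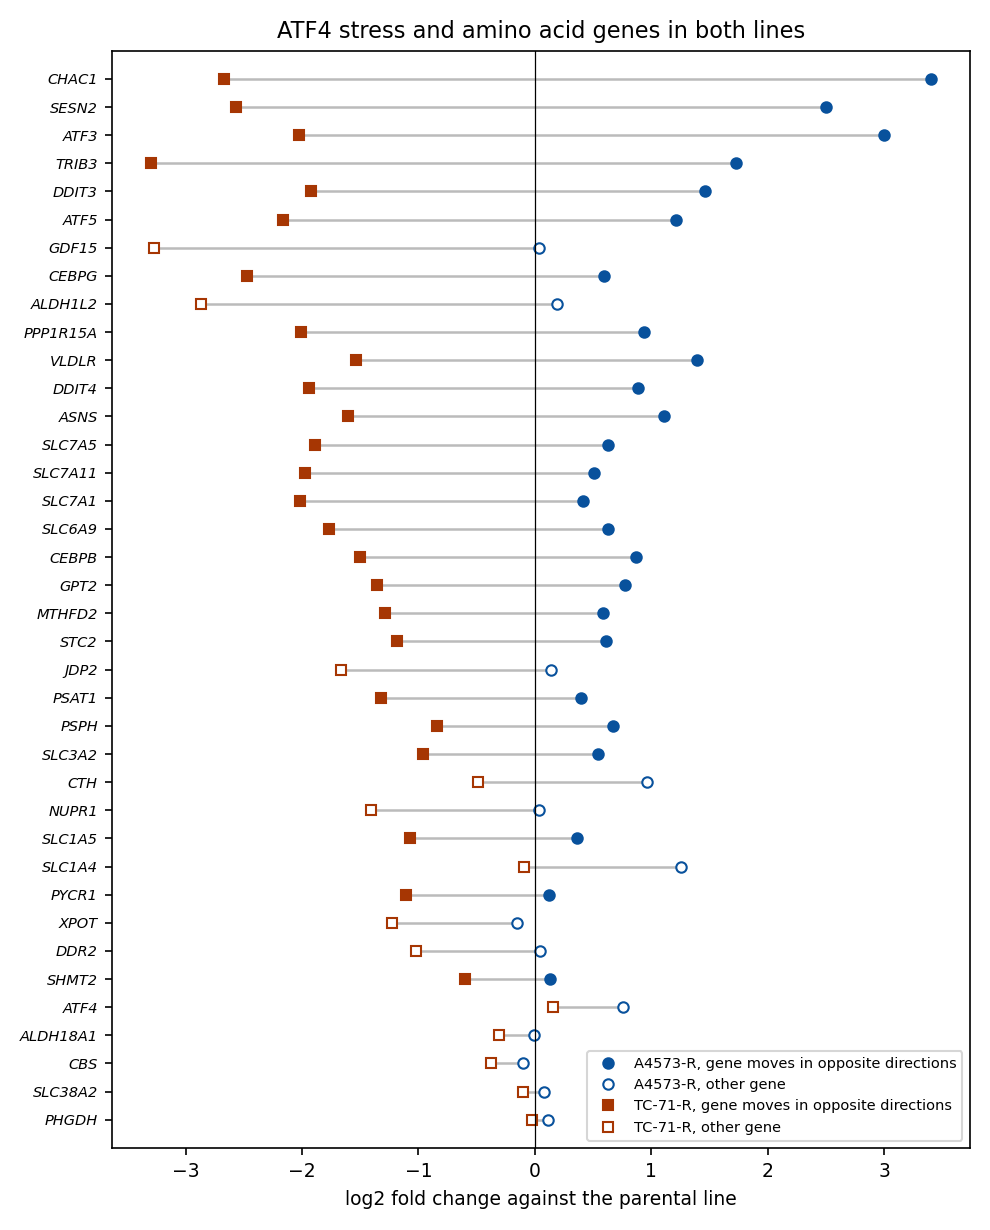
Change of the 38 tested ATF4 stress and amino acid genes in A4573-R (blue circles) and TC-71-R (brown squares), as log2 fold changes against the parental line and ordered by the difference. Filled marks show the 25 genes that moved in opposite directions. The squares lie left of the circles in every row, and ATF4 is the one gene with both marks right of 0.

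Because these genes moved together, their promoters were searched for TGATGNAA, the core of the composite site that ATF4 and a C/EBP partner bind (N is any base; both strands; 250 bases before each RefSeq start, GRCh38.p14). A promoter was at hand for 10469 tested genes, of which 247 (2.36%) held the motif. It was found in 6 of 31 tested members of the ATF4 list (19.4%) and in 5 of the 20 that were opposite (25%). It was also found in 50 of 1520 genes that rose in A4573-R and fell in TC-71-R (3.29%), which include those 5. Genes that did the reverse held it in 1.88%. Of the 69 genes above 2-fold in each line, 52 had a promoter and 4 of these held it, namely CHAC1, ATF3, ASNS and FGFBP3, the last a binding protein of fibroblast growth factors. The GGAA repeat GGAAGGAA, which resembles sites of EWS-FLI1, was found in 4.33% of all promoters, 4.47% of those up in A4573-R and down in TC-71-R and 3.31% of the reverse. A match describes letters, not a bound site, and no binding was measured. The 5 matches among the opposite members are shown for comparison of the bases around the shared core, with the motif in capitals, 5′ to 3′ on the strand that carries it. They were picked after the search. The RefSeq starts of ASNS, CEBPG, CHAC1 and SLC1A5 lie downstream of the gene starts in GENCODE 29, so 4 of the 5 matches fall within the annotated gene span, and that of ATF3 lies before it.
ASNS, chr7:97872458-97872487, minus strand, 68 bases before the start: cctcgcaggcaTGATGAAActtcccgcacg
ATF3, chr1:212565205-212565234, plus strand, 191 bases before the start: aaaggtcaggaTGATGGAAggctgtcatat
CEBPG, chr19:33374060-33374089, plus strand, 42 bases before the start: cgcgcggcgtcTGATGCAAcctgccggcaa
CHAC1, chr15:40953251-40953280, minus strand of a plus-strand gene, 209 bases before the start: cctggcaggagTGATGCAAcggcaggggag
SLC1A5, chr19:46784893-46784922, minus strand, 97 bases before the start: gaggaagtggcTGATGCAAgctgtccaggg
In CEBPG, CHAC1 and SLC1A5 the matched letters are identical, TGATGCAA, while ASNS and ATF3 differ from them at the base that the motif leaves free.

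Enzymes that load amino acids onto transfer RNA were split by symbol, with symbols ending in 2 taken as mitochondrial and the others as cytosolic. The compartment of each enzyme was not checked. Of 20 tested cytosolic synthetases 15 had a difference below 0 and 4 above, against 40.2% and 37.9% of all tested genes. Among the 20, 6 moved up in A4573-R and down in TC-71-R and 2 did the reverse, against 14.3% and 11.9%. Their median change was 0.08 in A4573-R and -0.60 in TC-71-R. Of 17 mitochondrial ones 7 lay below and 7 above 0, close to the shares of all tested genes, 1 and 1 were opposite, and the medians were -0.03 and -0.03. GARS, for glycine, had 174, 178 and 177 CPM in A4573 parental, 251, 334 and 209 CPM in A4573-R, 452, 460.4 and 463 CPM in TC-71 parental and 187, 189.7 and 183 CPM in TC-71-R. AARS, for alanine, changed by 0.48 in A4573-R and -0.79 in TC-71-R and CARS, for cysteine, by 0.45 in A4573-R and -0.60 in TC-71-R. WARS, for tryptophan, fell in both lines, by 0.30 and 1.97. Endoplasmic reticulum chaperones gave a different picture, with 17 of 26 lower in A4573-R and 17 lower in TC-71-R, against 34.1% and 39.6% of all tested genes. Among the 26, 5 were opposite up in A4573-R and 4 the other way. HSPA5, the main chaperone of that compartment, changed by -0.72 in A4573-R and -0.73 in TC-71-R. HERPUD1, which serves in the disposal of misfolded proteins, had 13.6, 12.8 and 13.7 CPM in A4573 parental, 23.4, 33.2 and 22.2 CPM in A4573-R, 84.4, 87.3 and 86.2 CPM in TC-71 parental and 37.1, 37.0 and 36.8 CPM in TC-71-R.

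Genes of DNA replication and S phase moved the other way. Of 37 tested, 21 were lower and 10 higher in A4573-R, 32 were higher and 1 lower in TC-71-R, and 19 (51.4%, against 11.9% of all tested genes) fell in A4573-R and rose in TC-71-R with 0 in the reverse. The median change was -0.20 and 0.74. RRM1, a subunit of ribonucleotide reductase, had 193, 197 and 199.9 CPM in A4573 parental, 146, 143 and 151 CPM in A4573-R, 64.3, 63.4 and 61.9 CPM in TC-71 parental and 127, 120.2 and 125 CPM in TC-71-R. CCNE1, the cyclin that starts S phase, changed by -0.67 in A4573-R and 0.66 in TC-71-R and CDC6, which loads the replicative helicase, by -0.46 in A4573-R and 0.66 in TC-71-R. For RRM1 the fall in A4573-R was smaller than the rise in TC-71-R, while for CCNE1 the sizes were nearly equal. All 3 genes were lower in TC-71 parental than in A4573 parental and stayed so in TC-71-R against A4573-R. CDT1, which works with CDC6, rose in both lines, by 0.72 and 0.20.

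All 33 tested mitosis genes were higher in TC-71-R and had a difference above 0, and 18 were higher and 8 lower in A4573-R. The 8 (24.2%) moved in opposite directions. The median change was 0.19 in A4573-R and 1.27 in TC-71-R. CDK1, the mitotic kinase, had 114, 116 and 117 CPM in A4573 parental, 101, 99.0 and 96.4 CPM in A4573-R, 24.3, 24.6 and 24.3 CPM in TC-71 parental and 70.0, 67.6 and 73.9 CPM in TC-71-R. KIF11, the spindle motor, changed by -0.61 in A4573-R and 1.40 in TC-71-R, KIF23, needed for cytokinesis, by -0.83 in A4573-R and 0.71 in TC-71-R and AURKB, a kinase of chromosome segregation, by -0.25 in A4573-R and 1.74 in TC-71-R. Bulk RNA does not show whether more cells were in a phase or each cell held more of the transcript, here or in any list below. Of 29 DNA repair genes 9 (31%) fell in A4573-R and rose in TC-71-R and 2 did the reverse, with medians of -0.08 and 0.34.

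The fusion partners themselves moved less than most of the genes above. EWSR1 had 236, 245 and 245 CPM in A4573 parental, 201, 201 and 212 CPM in A4573-R, 187, 185 and 189 CPM in TC-71 parental and 202, 208 and 209 CPM in TC-71-R, with log2 fold changes of -0.24 in A4573-R and 0.14 in TC-71-R, and under quantile normalization it no longer met the definition of opposite movement. FLI1 fell in both lines, by 0.75 and 0.21, from 37.1 ± 0.938 CPM to 21.7 ± 0.934 CPM and from 23.6 ± 0.187 CPM to 20.3 ± 0.921 CPM (SD, n = 3). Reads on these genes count the fusion and the normal alleles together. DHX9, the helicase that YK-4-279 is meant to separate from the fusion protein, had 567, 562 and 563 CPM in A4573 parental, 445, 403 and 467 CPM in A4573-R, 209, 205 and 209 CPM in TC-71 parental and 303, 266 and 304 CPM in TC-71-R and changed by -0.37 in A4573-R and 0.48 in TC-71-R. ETV1, an ETS factor, went the other way from DHX9 with 0.54 in A4573-R and -1.69 in TC-71-R.

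Of 38 tested genes known as activated by EWS-FLI1, 10 (26.3%) fell in A4573-R and rose in TC-71-R and 3 (7.89%) did the reverse, with medians of -0.13 and 0.11. CCND1, a G1 cyclin, had 628, 624 and 648 CPM in A4573 parental, 359, 327 and 360.1 CPM in A4573-R, 751, 743 and 749 CPM in TC-71 parental and 982, 961 and 971 CPM in TC-71-R. It changed by -0.86 in A4573-R and 0.38 in TC-71-R, and under quantile normalization it no longer met the definition. LIPI, a lipase, changed by -1.14 in A4573-R and 1.00 in TC-71-R, RBM11, a splicing regulator, by -0.89 in A4573-R and 1.29 in TC-71-R and STEAP1, a surface antigen, by -0.41 in A4573-R and 0.96 in TC-71-R. GLI1, the effector of Hedgehog signalling and a direct target of the fusion, went against them with 13.4, 13.5 and 13.9 CPM in A4573 parental, 71.7, 74.1 and 72.7 CPM in A4573-R, 18.9, 18.5 and 19.3 CPM in TC-71 parental and 9.82, 9.73 and 8.61 CPM in TC-71-R. Its log2 fold change was 2.34 in A4573-R and -0.94 in TC-71-R (SE 0.05 in each line), and the difference between them was -3.28 (SE 0.06, adjusted p 4.4e-15). SOX2, a stem cell factor, changed by 0.72 in A4573-R and -0.69 in TC-71-R, and the death receptor TNFRSF10B by 0.69 in A4573-R and -1.05 in TC-71-R. NKX2-2, one of the best known targets, rose slightly in both lines, by 0.33 and 0.09.

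Of 15 tested genes known as held down by EWS-FLI1, 9 were lower and 3 higher in A4573-R, 9 were higher and 3 lower in TC-71-R, and 5 (33.3%) fell in A4573-R and rose in TC-71-R. The median change was -1.07 and 0.47, and it ran from -1.36 to -0.37 and from 0.23 to 0.78 over the other settings, being nearest 0 with pseudocount 4 or no filter. The list's median per library, each gene centred on its mean, was 0.72 to 0.79 in A4573 parental and -0.21 to -0.19 in A4573-R. It was -0.41 to -0.24 in TC-71 parental and -0.39 to -0.29 in TC-71-R, so on this measure the TC-71 groups overlapped. ACTA2, smooth muscle actin, had 14.4, 14.4 and 13.5 CPM in A4573 parental, 2.11, 2.19 and 2.47 CPM in A4573-R, 1.60, 1.39 and 1.71 CPM in TC-71 parental and 2.55, 2.73 and 2.78 CPM in TC-71-R. CTGF, a matrix protein induced by YAP, changed by -2.0 in A4573-R and 0.88 in TC-71-R, its relative CYR61 by -1.33 in A4573-R and 0.58 in TC-71-R and LOX, which crosslinks collagen, by -1.07 in A4573-R and 0.49 in TC-71-R. In TC-71 these genes started low and stayed below the A4573 parental level after their rise. THBS1 and DKK1 fell in A4573-R by 2.78 and 1.38 and were at or below 0.103 CPM in every TC-71 library. TGFBR2 fell in both lines, by 1.52 and 0.80.

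Contractile genes driven by the factor SRF overlapped this list. Of 11 tested, 6 (54.5%) fell in A4573-R and rose in TC-71-R and 1, SRF itself, did the reverse. The median change was -0.73 and 0.70. With no filter on low values it was 0 and 0.12, over 18 tested genes. CALD1, a regulator of actin and myosin, had 69.7, 74.2 and 75.6 CPM in A4573 parental, 26.7, 28.5 and 27.1 CPM in A4573-R, 14.1, 14.0 and 13.7 CPM in TC-71 parental and 24.5, 23.2 and 25.0 CPM in TC-71-R. VCL, which anchors actin at adhesions, changed by -0.73 in A4573-R and 0.93 in TC-71-R and CNN2, a calponin, by -0.79 in A4573-R and 0.71 in TC-71-R. ACTG2 rose in both lines, by 3.25 and 1.13, and TPM1 fell in both.

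Mesenchymal and matrix genes did not move as a block. Of 29 tested, 8 (27.6%) fell in A4573-R and rose in TC-71-R and 4 (13.8%) did the reverse. TIMP1, an inhibitor of matrix proteases, had 60.9, 64.6 and 62.0 CPM in A4573 parental, 28.7, 27.8 and 30.9 CPM in A4573-R, 230.1, 239.6 and 243 CPM in TC-71 parental and 477, 466 and 494 CPM in TC-71-R. LUM, a matrix proteoglycan, changed by -0.97 in A4573-R and 1.68 in TC-71-R and PRRX1, a mesenchymal homeobox gene, by -0.57 in A4573-R and 1.31 in TC-71-R. On the other side TNC, the matrix protein tenascin, had 13.0, 12.7 and 15.0 CPM in A4573 parental, 27.7, 25.3 and 26.8 CPM in A4573-R, 28.0, 25.8 and 29.1 CPM in TC-71 parental and 3.30, 4.01 and 3.52 CPM in TC-71-R. ZEB1, a repressor of epithelial genes, changed by 0.96 in A4573-R and -0.63 in TC-71-R, while SNAI2, which has the same role, changed by -0.29 in A4573-R and 0.89 in TC-71-R.

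Interferon response genes rose in TC-71-R without an even counterpart in A4573-R. Of 26 tested, 21 were higher and 3 lower in TC-71-R, 8 were higher and 10 lower in A4573-R, and 8 (30.8%) fell in A4573-R and rose in TC-71-R with 0 in the reverse. The median change was 0.03 and 0.69, and over the other settings it lay between -0.10 and 0.11 in A4573-R and between 0.28 and 0.81 in TC-71-R. IFITM2 had 3.47, 3.58 and 3.59 CPM in A4573 parental, 0.535, 0.487 and 0.465 CPM in A4573-R, 8.49, 8.26 and 8.39 CPM in TC-71 parental and 17.9, 18.7 and 20.1 CPM in TC-71-R. IFIT1, which binds foreign RNA, changed by -0.70 in A4573-R and 0.77 in TC-71-R and IFIT3, its partner, by -0.86 in A4573-R and 0.82 in TC-71-R. IFIH1, a sensor of double-stranded RNA, and IFI6 rose in both lines, by 1.48 and 1.94 and by 0.46 and 2.14.

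Among 30 tested HOX genes 9 (30%) rose in A4573-R and fell in TC-71-R and 1 did the reverse, and 7 of the 9 lie in the HOXB cluster on chromosome 17. HOXB2, HOXB4, HOXB5, HOXB6, HOXB7, HOXB8 and HOXB9 span positions 48540894 to 48633572 (GRCh38). HOXB8 had 0.957, 0.721 and 0.771 CPM in A4573 parental, 6.47, 7.83 and 6.90 CPM in A4573-R, 1.16, 1.12 and 1.05 CPM in TC-71 parental and 0.533, 0.446 and 0.340 CPM in TC-71-R. HOXB5 changed by 1.25 in A4573-R and -1.28 in TC-71-R, HOXB6 by 0.75 in A4573-R and -1.49 in TC-71-R, HOXB7 by 1.00 in A4573-R and -1.12 in TC-71-R, HOXB2 by 0.96 in A4573-R and -0.22 in TC-71-R and HOXB4 by 0.46 in A4573-R and -0.61 in TC-71-R. HOXB3, within the same stretch, fell in both lines, by 0.40 and 1.04. HOXB13, at the far end of the cluster, rose by 0.86 in TC-71-R and had a change of 0.02 in A4573-R that did not pass. In the annotation HOXB3 overlaps HOXB4, HOXB5 and HOXB6, and HOXB7 overlaps HOXB8 and HOXB9, so reads may be shared between them. The other opposite members that rose in A4573-R were HOXD8 (0.88 in A4573-R and -0.42 in TC-71-R) and HOXC11 (0.18 in A4573-R and -0.83 in TC-71-R), and HOXD13 did the reverse (-0.31 in A4573-R and 0.23 in TC-71-R). Of 53 developmental transcription factors 11 (20.8%) rose in A4573-R and fell in TC-71-R and 5 did the reverse.

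Neuronal adhesion and synaptic vesicle genes leaned to A4573-R, while glutamate and purinergic receptors were split there and mostly lower in TC-71-R. Of 30 tested neuronal adhesion and synaptic vesicle genes, 22 were higher in A4573-R and 11 higher and 12 lower in TC-71-R, and 10 (33.3%) rose in A4573-R and fell in TC-71-R against 2 in the reverse. ENO2, the neuronal enolase, had 8.16, 7.67 and 7.72 CPM in A4573 parental, 58.5, 54.9 and 55.9 CPM in A4573-R, 79.6, 76.5 and 78.9 CPM in TC-71 parental and 56.6, 60.0 and 55.4 CPM in TC-71-R. SYT11, a synaptotagmin, changed by 1.03 in A4573-R and -1.16 in TC-71-R, the neuroligin NLGN1 by 0.92 in A4573-R and -0.68 in TC-71-R and the myelin proteolipid relative GPM6B by 0.73 in A4573-R and -0.77 in TC-71-R. NRCAM, an adhesion molecule of axons, went the other way with -1.10 in A4573-R and 0.63 in TC-71-R. Of 12 glutamate and purinergic receptors 6 were higher and 5 lower in A4573-R, and 3 were higher and 8 lower in TC-71-R. Among the 12, 5 rose in A4573-R and fell in TC-71-R and 2 did the reverse. These include the kainate receptor subunits GRIK5 with 1.10 in A4573-R and -1.15 in TC-71-R and GRIK3 with -0.92 in A4573-R and 5.39 in TC-71-R.

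Of 15 tested epithelial keratin and junction genes 6 (40%) rose in A4573-R and fell in TC-71-R and 1 did the reverse, with medians of 0.11 and -0.68. The TC-71-R median ran from -1.31 in edgeR to -0.00583 with no filter. PKP2, a desmosome protein, had 18.5, 19.6 and 19.4 CPM in A4573 parental, 55.0, 51.5 and 57.0 CPM in A4573-R, 40.5, 42.0 and 40.9 CPM in TC-71 parental and 16.4, 15.7 and 17.5 CPM in TC-71-R. ESRP1, which sets epithelial splicing, changed by 0.57 in A4573-R and -2.50 in TC-71-R. The summed epithelial markers given above fell in TC-71-R alongside, and KRT8 and KRT18 are in both lists. In the Hedgehog pathway 5 of 12 tested genes rose in A4573-R and fell in TC-71-R and 4 did the reverse. HHIP, an inhibitor induced by the pathway, moved with GLI1, by 0.94 in A4573-R and -1.12 in TC-71-R. PTCH1, the receptor and another induced gene, rose in both, by 0.43 and 0.57. The signal transducer SMO and the co-receptor BOC changed by -0.61 in A4573-R and 0.33 in TC-71-R and by -0.46 in A4573-R and 1.28 in TC-71-R.

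Genes of RNA processing mostly fell in A4573-R. Of 41 tested splicing factors and hnRNPs 27 were lower in A4573-R and 23 higher in TC-71-R, and 15 (36.6%) fell in A4573-R and rose in TC-71-R against 3 in the reverse. HNRNPF had 259, 269 and 272 CPM in A4573 parental, 146, 135 and 161 CPM in A4573-R, 180.4, 181 and 181 CPM in TC-71 parental and 242, 229.7 and 239 CPM in TC-71-R, and SRSF7 changed by -0.35 in A4573-R and 0.79 in TC-71-R. Of 40 DEAD and DEAH box helicases 29 were lower in A4573-R, and 10 (25%) moved in that opposite pattern with 0 in the reverse. Of 29 MYC and ribosome biogenesis genes 24 were lower in A4573-R, 11 higher and 13 lower in TC-71-R, and 9 (31%) moved in that pattern against 2. MYC itself fell alike in both lines, by 0.17 and 0.17.

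Other lists moved together or split. Tubulins, for example, were higher in both derivatives, 12 of 16 in each line, with 1 gene opposite each way. Of 33 cholesterol and fatty acid synthesis genes 22 were higher in A4573-R and 23 in TC-71-R, with 5 and 3 opposite. Of 23 ABC transporters 5 and 3 were opposite, and of 33 autophagy and lysosome genes 8 and 5, with LAMP3 and MAP1LC3B (0.69 in A4573-R and -0.72 in TC-71-R) among the 8 and TPP1 (-0.63 in A4573-R and 0.68 in TC-71-R) among the 5. Each list's counts of opposite genes are to be read against 14.3% and 11.9% of all tested genes. Counts of higher genes are to be read against 38.3% in A4573-R and 38.8% in TC-71-R, and counts of lower genes against 34.1% and 39.6%. The lists share members.

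**Figure D4:**
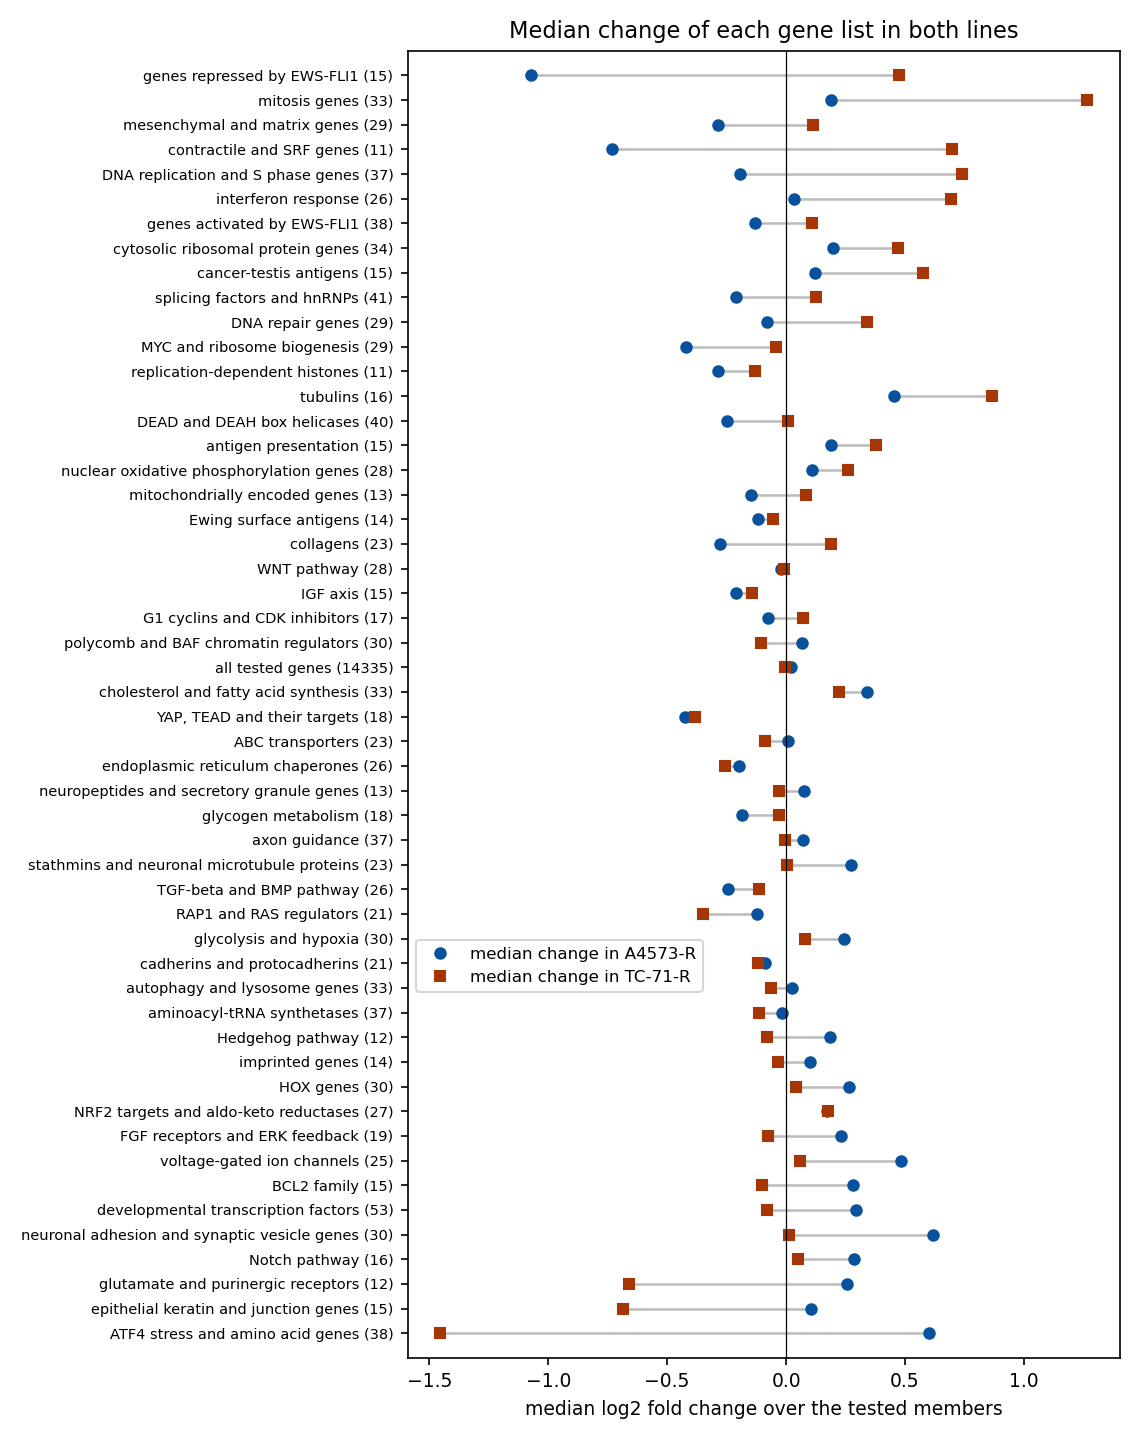
Median change of each gene list with at least 10 tested members, the Ewing line markers left out, and of all tested genes. Blue circles show A4573-R and brown squares TC-71-R. The number of tested members is in brackets, and the rows are ordered by the median difference between lines. The ATF4 list at the foot has medians of 0.60 and -1.45, and the lists repressed by EWS-FLI1 and of contractile genes near the top have -1.07 and 0.47 and -0.73 and 0.70. Tubulins lie to the right of 0 in both lines.

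Large differences did not need opposite movement. FMO1, a drug-oxidising enzyme, had 0.146, 0.186 and 0.120 CPM in A4573 parental, 0.694, 0.675 and 0.594 CPM in A4573-R, 0.763, 0.507 and 0.610 CPM in TC-71 parental and 64.8, 61.5 and 65.2 CPM in TC-71-R, a rise in both lines with a difference of 4.80 (SE 0.08, adjusted p 1.5e-15). PAGE1, a cancer-testis antigen, was listed at 0 in the 3 A4573 parental libraries and at 0.0868 CPM or less in A4573-R, while TC-71 had 4.52, 4.59 and 4.17 CPM in the TC-71 parental libraries and 101, 97.4 and 99.5 CPM in TC-71-R. Its difference of 4.15 (SE 0.07, adjusted p 9.3e-16) on log2(CPM + 1) was not found on whole reads, where edgeR's quasi-likelihood test gave -0.25 with an adjusted p of 0.405 and DESeq2 gave 0.35 with 0.814.

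Opposite genes were found on each of chromosomes 1 to 22 and X, but not evenly. On chromosome 11, 27.5% of 778 tested genes fell in A4573-R and rose in TC-71-R, against 11.9% of all tested genes, and the chromosome's median change was -0.19 and 0.09. With each gene centred on its mean, that chromosome's median was 0.20 to 0.23 in the A4573 parental libraries and -0.00 to 0.02 in A4573-R. It was -0.17 to -0.16 in TC-71 parental and -0.08 to -0.06 in TC-71-R. On chromosome 6, 22.8% of 680 genes rose in A4573-R and fell in TC-71-R, against 14.3% of all tested genes, with a median of 0.25 and 0.01. On chromosome 13 the same share was 24.4% of 250 genes, where 76% of genes were lower in TC-71-R and the median was 0.01 and -0.51. Chromosomes 15 and 12 had TC-71-R medians of -0.43 and -0.30, with 74.7% and 62.5% of genes lower there. Within a group the 3 libraries gave chromosome medians close to each other, so these shifts exceed the spread between libraries. CHAC1 lies on chromosome 15, P2RX7, DDIT3 and GLI1 on chromosome 12 and IFITM2, IFITM3 and PDGFD on chromosome 11. IFITM2 and IFITM3 lie within positions 1 to 10000000 of chromosome 11. The 98 genes tested there had median changes of -0.41 in A4573-R and 0.15 in TC-71-R. Differences in chromosome copies were not measured, and their part in the results was not tested.

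**Figure D5:**
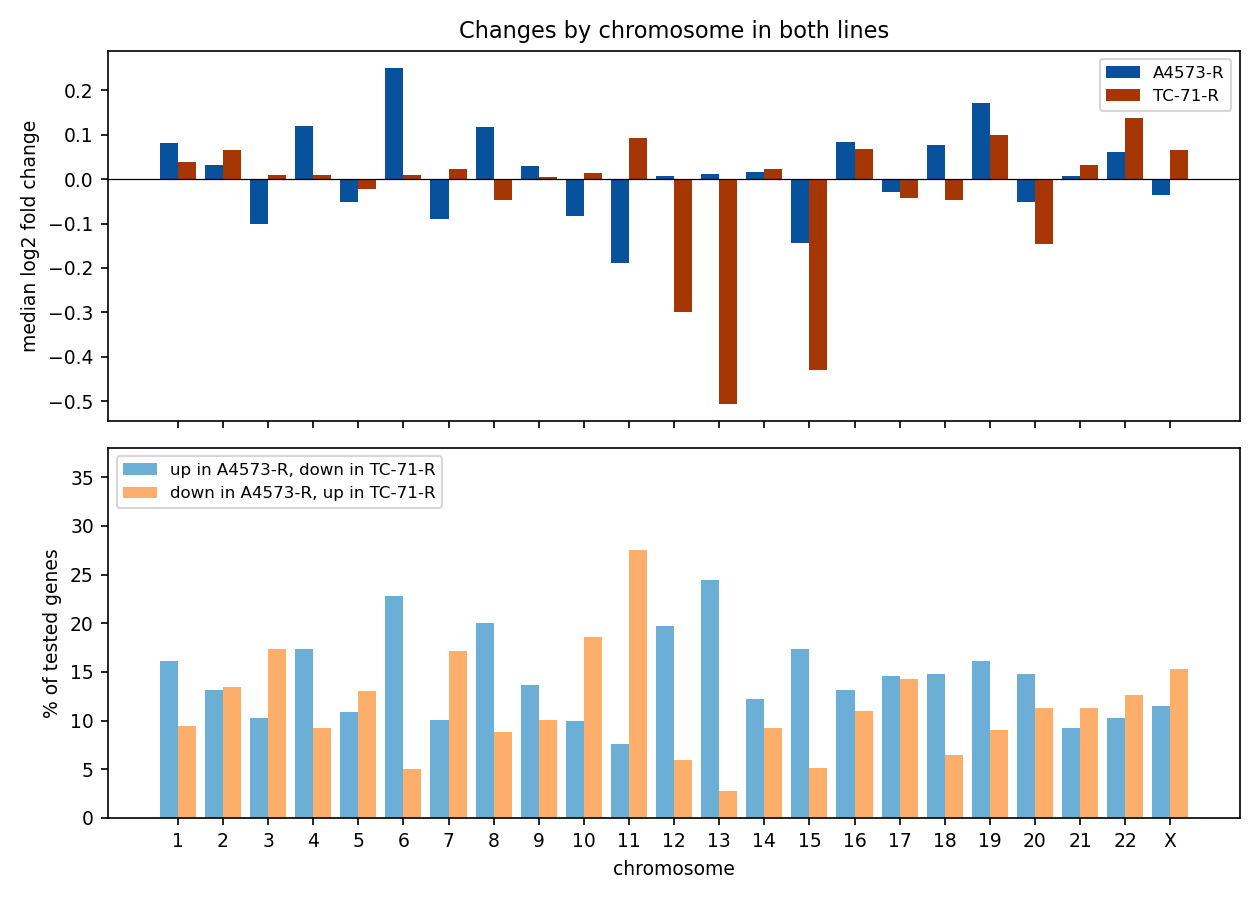
Upper panel, median log2 fold change of the tested genes on each chromosome in A4573-R (blue) and TC-71-R (brown). Lower panel, share of tested genes on each chromosome that rose in A4573-R and fell in TC-71-R (light blue) or did the reverse (light orange). Chromosome 11 stands out for the second share with 27.5%, and chromosomes 12, 13 and 15 for medians of -0.30, -0.51 and -0.43 in TC-71-R.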

How the data were processed

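RNA sequencing of 12 libraries gave deposited signal values that are CPM, counts scaled to 1000000 reads of a scaled library size, not raw counts. Per the submitters' processing notes, Trimmomatic, STAR 2.4, HTSeq and edgeR were used on GRCh38. Dividing by the worth of 1 read recovered whole reads for 100% of values within 0.001. Of 58293 entries, 5 without a gene name, with 30.6% to 42.0% of the reads, were left out, and entries sharing a symbol were summed. A gene was kept if 3 or more libraries reached 1 CPM.

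Differences came from limma 3.58.1 (R 4.3.3) with a variance trend, fitted to all 4 groups on log2(CPM + 1), with Benjamini-Hochberg adjustment over all 14335 genes at 0.05. The code was tested on simulated data. Alternatives were 2 pseudocounts, 2 filters, 4 scalings, edgeR 4.0.16 and DESeq2 1.42.0 on whole reads, library weights, no trend, a replicate block and each library left out. Gene positions are from GENCODE 29 and promoters from RefSeq GRCh38.p14.

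The comparison, the gene lists and the tests were chosen with earlier results of these data known. The genes named by rule were EWSR1, FLI1 and DHX9, the 12 per direction with the largest smaller change, the 8 per direction with the largest difference and up to 4 opposite members per list. For a list without such a member, the rule took those with the largest difference among members whose difference passed the threshold. Each gene named by rule had at least 5 CPM in 1 group and no overlap between libraries. Some genes that the rule or the lists hold are counted but not reported by name here. List members named beyond that rule, and the promoter sites, were chosen after their values were seen. Strand and RNA selection of the libraries are not stated in the labels, so reads of overlapping genes cannot be told apart.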

Additional observations from a re-analysis of the deposited data

Results flagged for a closer look

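Groups of 3 libraries are too small for the check on single outlying libraries. The results listed here are instead the genes named by the rule above for their smaller change or for their difference between the lines. Each is given as the change in TC-71-R minus the change in A4573-R on log2(CPM + 1). The list is not a full ranking by difference. NMNAT2 (-4.94) and IFITM2 (2.69), for example, are left out although their differences are larger in size than some listed. All 30 listed differences passed the threshold in limma, with an adjusted p under 0.05. For 28 of the 30 the lines moved in opposite directions.

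Negative differences, where A4573-R moved higher, were found for P2RX7 (-6.13), CHAC1 (-6.07), LAMP3 (-5.99), HOXB9 (-5.92), KIF5C (-5.48), INHBE (-5.10), SESN2 (-5.07), ATF3 (-5.02), TRIB3 (-5.02), MAL2 (-4.58), LINC01234 (-3.86), PRR36 (-3.83), GPR85 (-3.60) and MTSS1 (-3.58). Stress genes, a neuronal motor and membrane proteins stand side by side in this group.

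Positive differences, where TC-71-R moved higher, were found for PEG10 (6.95), RAP1GAP2 (6.82), GRIK3 (6.32), FMO1 (4.80), ATOH8 (4.41), EPAS1 (4.30), EN2 (4.28), PAGE1 (4.15), GPNMB (3.96), PDGFD (3.37), GABRE (3.17), OBSL1 (3.17), IL11RA (3.13), RIN2 (2.64), IFITM3 (2.60) and UGT3A2 (2.55). FMO1 rose in both lines, and PAGE1 was near 0 in every A4573 library, so these 2 did not move in opposite directions.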

How the results depend on the processing

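Under 25 settings tried beside the one reported, the number of genes moving in opposite directions stayed between 3231 and 4202. With each library left out in turn, 10694 to 11076 genes differed between lines (5162 to 5453 higher in TC-71-R, 5400 to 5748 higher in A4573-R), 3488 to 3841 were opposite (1883 to 2077 up in A4573-R and 1574 to 1764 down), and 9719 to 10577 changed in A4573-R and 10584 to 11351 in TC-71-R. The 2-fold counts were then 88 to 101 (62 to 77 and 22 to 26). A fold limit moved the opposite count to 442 at 1.5-fold and 93 at 2-fold. The 2-fold counts moved with the pseudocount and with the count models, which change several choices at once: pseudocount 0.25 gave 184 (138 and 46), pseudocount 4 gave 37 (24 and 13), edgeR gave 346 (269 and 77) and DESeq2 gave 345 (269 and 76). In all, 2495 opposite genes met the definition in every setting, as did 173 of the 187 opposite genes named by the rule. Of 1349 pairs of a gene list and a setting, 391 moved the list's median difference by more than its SD between libraries of a group. The ATF4 medians ran from 0.40 to 0.76 and from -1.65 to -1.25, and those of genes activated by EWS-FLI1 from -0.16 to -0.094 and from 0.04 to 0.14. Of 4794 pairs of a named gene and a setting, 4789 kept direction and side of the threshold. PAGE1 reversed in edgeR (-0.2481) and lost its call in DESeq2 (0.3549), HIST1H4H lost its call in both (-0.1367 and -0.1343) and RPL37 under quantile normalization (0.1748). The causes were not tested. TMM, median-of-ratios and quantile scaling made genes higher in TC-71-R the larger group of differing genes, 5938 against 5353 under TMM. Replicate numbers did not pair the libraries, with correlations of -0.097 to 0.016 between same-numbered libraries, and a fit with the replicate block gave 11088 differing genes, 3689 opposite (1996 and 1693) and 93 at 2-fold.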
